A study of Mus musculus with 2 samples.

Results

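The genes described here are the nuclear genes of oxidative phosphorylation, taken from the gene list of the files by the start of their symbols (Ndufa, Ndufb, Ndufc, Ndufs and Ndufv for complex I, Sdh for complex II, Uqcr for complex III, Cox4i, Cox5, Cox6, Cox7 and Cox8 for complex IV, Atp5 for complex V). Ndufa4, the Ndufaf assembly factors and symbols ending in -ps, Rik or os were left out. The rule gave 87 of 53715 genes: 37 in complex I, 8 in complex II, 8 in complex III, 18 in complex IV and 16 in complex V. It used no measured value. It also took in 4 assembly factors of complex II (Sdhaf1 to Sdhaf4) and Atp5s, which is named for ATP synthase but is not a subunit of it, while Cyc1, a subunit of complex III, fell outside it. Ndufa4l2, a relative of the left-out Ndufa4, was counted in complex I by its symbol alone. Every member is annotated as protein coding, and the members lie on 19 chromosomes of mm10 (GENCODE M21).

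The cells were sorted as CD45.2-positive, CD3-negative, NKp46-positive natural killer (NK) cells from tumours of CT26, a mouse colon carcinoma line, in a form that the labels give as b2m-/-, without the light chain of MHC class I. One library was labelled IL-15SA, called IL-15SA alone below, and the other IL-15SA+IL-21Fc, called the combination, so both groups carried IL-15SA and the b2m-/- tumour and differed by IL-21Fc. IL-15 and IL-21 are cytokines that act on NK cells through receptors with a shared gamma chain. The labels state no dose, timing, mouse strain or age, and no untreated group was analysed here. Cells of 1 treatment were pooled, so there was 1 library per group, the differences have no replicate check and no test between groups was possible. How many mice each pool held is not stated.

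Oxidative phosphorylation takes place in the inner mitochondrial membrane. Complex I takes electrons from NADH and complex II from succinate, complex III passes them to cytochrome c and complex IV to oxygen, and complexes I, III and IV pump protons whose return through complex V drives the synthesis of ATP. Complexes I, III, IV and V are built from both nuclear and mitochondrially encoded subunits, complex II from nuclear ones alone. NK cells are known to raise mitochondrial respiration when cytokines activate them.

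Many nuclear respiratory genes are known for GC-rich promoters with sites of the factor NRF1. RefSeq promoters (GRCm38.p6, 250 bases before to 50 bases after the start) matched 72 of the 87 members. The core palindrome of NRF1 sites, in capitals in the windows printed here, was present in 5 of the 72 (6.94%) against 1.07% of 27025 genes with a promoter. The windows of 4 of them are printed because the members are examined as a group that could share promoter features. The palindrome reads the same on both strands, and each window runs 5′ to 3′ on the strand of the gene. The Atp5k window is chr5:108434420-108434469 (minus strand), Cox6a1 is chr5:115349091-115349140 (minus), Atp5g2 is chr15:102671060-102671109 (minus) and Ndufa11 is chr17:56717682-56717731 (plus).
Atp5k: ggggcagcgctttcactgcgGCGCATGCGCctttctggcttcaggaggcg
Cox6a1: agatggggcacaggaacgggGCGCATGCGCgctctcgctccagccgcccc
Atp5g2: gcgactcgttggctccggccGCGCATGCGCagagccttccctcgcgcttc
Ndufa11: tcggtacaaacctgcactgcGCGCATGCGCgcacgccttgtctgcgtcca
The palindrome began 50, 162, 42 and 60 bases before the start site in these 4 promoters. A looser form, GCGC followed by 2 bases of any kind and GCGC again, which includes the palindrome, was present in 21 of 72 members (29.2%) against 1891 of the 27025 genes, spread over complex I (9 members), complex II (4), complex III (1), complex IV (1) and complex V (6). CCGGAAGT, a core of ETS sites, was in 6.94% of members and 4.31% of all genes, and CCAAT in 43.1% and 41.1%, each counted on both strands. The core of YY1 sites, AAGATG followed directly by GCGG and also counted on both strands, was in 5 of the 72 members (Ndufa9, Ndufs7, Ndufs6, Ndufs4 and Atp5j; 6.94%) against 0.995% of all genes, so it was above the share of all genes as the NRF1 palindrome was. The share of all genes covers every gene with a promoter and was not matched to the members on GC content or level. A match to these letters is a description of the promoter and not evidence that a factor binds there.

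The IL-15SA file held 8386 barcodes with 30893388 UMIs (unique molecular identifiers, each standing for 1 counted transcript) and the combination file 12435 barcodes with 35336180 UMIs. The same barcode sequence occurred in both files in 60 cases. Barcodes were called Ncr1-positive with at least 1 UMI of Ncr1, the gene of the sorted receptor NKp46, and under 10 UMIs over 10 tumour or stroma markers (Col1a1, Col1a2, Col3a1, Sparc, Dcn, Pcolce, Rhox5, Cxcl5, Saa3 and Krt18). They were called tumour-like with at least 10 such UMIs that were also at least 10 times their Ncr1 UMIs. This gave 7699 and 10819 Ncr1-positive barcodes in the IL-15SA and combination libraries (91.8% and 87.0%) with a median of 3155 and 2397 UMIs, and 102 and 381 tumour-like barcodes with a median of 5579 and 4982 UMIs. Of the rest, 33 and 72 barcodes were mixed and 552 and 1158 belonged to neither class.

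Markers that did not set the classes gave a mixed picture of them. The sum of 11 NK markers, of which only Ncr1 was used to set the classes, was 40796 and 37159 CPM in Ncr1-positive barcodes, and tumour-like barcodes held 10.7% and 9.06% of that level, with 60 of 102 and 159 of 381 of them carrying an Ncr1 UMI. In Ncr1-positive barcodes T cell markers summed to 159.5 and 175.6 CPM, mostly Cd3g (106 and 118 CPM), with Cd3e at 1.28 and 0.689 CPM; B cell markers summed to 0.104 and 0.164 CPM. The 6 myeloid markers summed to 29.6 CPM with IL-15SA alone and 39.1 CPM with the combination. Nearly all of that was Cd68 (29.4 and 38.8 CPM), a lysosomal protein gene, while Lyz2 was at 0.173 and 0.230 CPM and C1qa at 0; the part of this difference in the members' values was not tested. Some class markers differed between the tumour-like barcodes of the 2 libraries: the chemokine gene Cxcl5 stood at 1.55 CPM with IL-15SA alone and 69.2 CPM with the combination, and the acute-phase gene Saa3 at 10.9 and 185 CPM. Both are among the 10 markers that set the class. The sum of the 10 was 4215 and 4179 CPM there, so the other markers together were lower with the combination. Whether the makeup of the class differed was not tested. A class cut at 10 marker UMIs is a range rather than a cell type, and 13 and 52 tumour-like barcodes lay at 9 to 11 marker UMIs. Tumour-like barcodes passed a sort for NKp46, and whether they are tumour cells, doublets or debris with NK transcripts was not tested.

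Levels are CPM, the UMIs of a gene over all UMIs of the class in a library on a scale of 1000000, and are compared between barcodes and never between genes. Intervals are exact 95% intervals for counting error only. Genes at 20 CPM or more in 1 side entered the counts of genes past a fold, and log2 ratios were taken after adding 1 CPM. A gene is counted as higher or lower past the threshold when its log2 ratio was at least 0.32 in size, and such counts stand beside the same share over all genes tested, the background. The background was not matched to the members on level, and genes near 20 CPM carry more counting error than genes at higher levels. Of the 87 members, 76 reached that level in Ncr1-positive barcodes. The other 11 were Atp5s, Cox4i1, Cox4i2, Cox6a2, Cox6b2, Cox7a1, Cox7b2, Cox8b, Cox8c, Ndufa13 and Ndufa4l2.

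In Ncr1-positive barcodes the members together took up nearly the same share of the RNA in both libraries. The sum of all members was 26084 CPM with IL-15SA alone and 25567 CPM with the combination, a ratio of 0.980 (0.977 to 0.983). The sum of complex I stood at 8322 and 8204 CPM, the sum of complex II at 909 and 875, the sum of complex III at 3224 and 3227, the sum of complex IV at 6914 and 6845 and the sum of complex V at 6715 and 6416. The ratio for the sum of complex V, 0.955 (0.949 to 0.961), was the one farthest from 1 among the 5 sums. Depth per barcode changed the direction of most of these ratios: with both libraries matched on UMIs per barcode, the log2 ratio of all members went from -0.03 to 0.022, the ratios of complexes I, II and IV also turned above 0, and that of complex V went from -0.07 to -0.0063. The ratios given below for parts of complexes are not matched on depth.

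**Figure D1:**
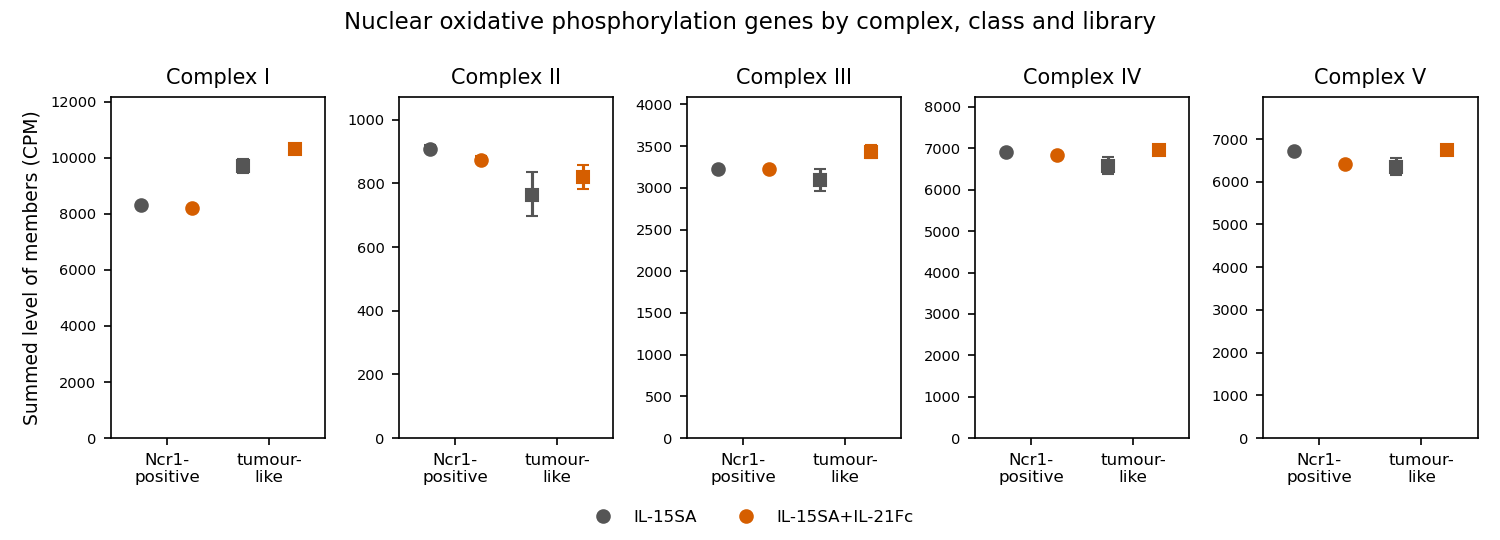
Summed level of the members of each complex (CPM, vertical axis, from 0) in Ncr1-positive (circles) and tumour-like barcodes (squares) of the IL-15SA (grey) and IL-15SA+IL-21Fc (orange) libraries, 1 library each; bars are exact 95% Poisson intervals for counting error. In Ncr1-positive barcodes the libraries lie close together in every complex, and complex I is higher in tumour-like barcodes of both libraries (9705 and 10305 CPM) than in Ncr1-positive ones (8322 and 8204 CPM).

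Member by member, 24 of the 76 had a ratio above 1 and 52 below 1 (68.4% below, against 54.5% of all 5450 genes tested). The median log2 ratio of the members was -0.03 and that of all genes -0.02. Only 3 members were higher past the threshold with the combination (background 5.87%), none was lower past it (background 3.27%), and none passed 1.5-fold in either direction (background 1.71% higher and 0.495% lower). The interquartile range of the members ran from -0.11 to 0.02 on the log2 scale and that of all genes from -0.12 to 0.10. The median by complex was -0.03 for I, -0.04 for II, -0.02 for III, -0.02 for IV and -0.07 for V.

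**Figure D2:**
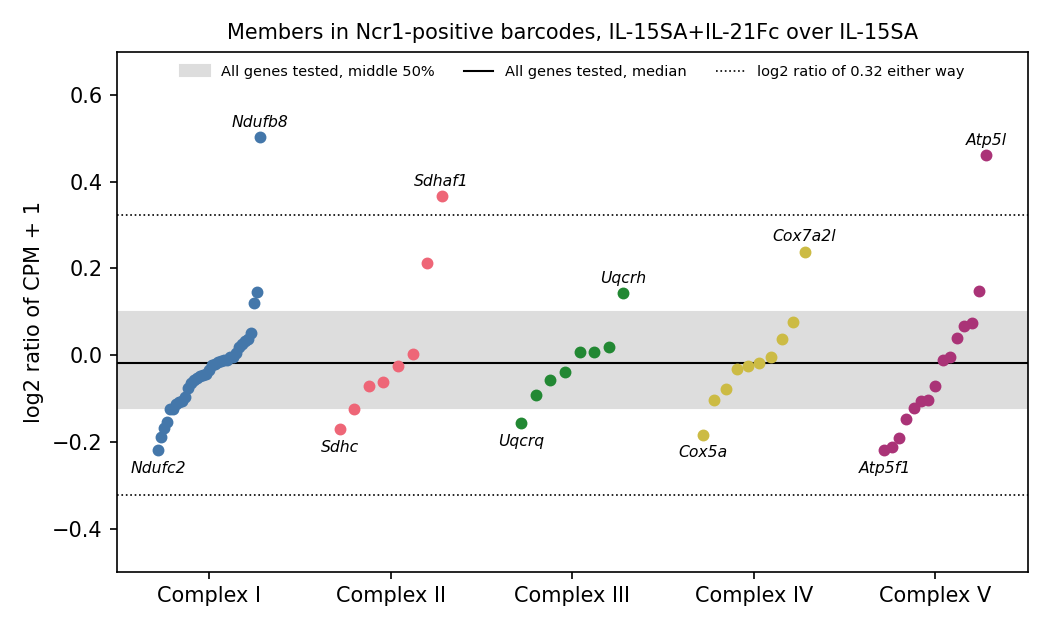
Log2 ratio of the combination over the IL-15SA library in Ncr1-positive barcodes (vertical axis, CPM + 1) for the 76 members tested, ordered within each complex, 1 point per gene; the grey band and black line are the middle 50% and the median of all 5450 genes tested, and dotted lines mark a log2 ratio of 0.32 either way. Ndufb8, Sdhaf1 and Atp5l lie above the upper dotted line and no member lies below the lower one.

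Complex I joins a catalytic core, which carries electrons from NADH to quinone, to a shell of accessory subunits. The nuclear genes of the core summed to a ratio of 0.959 (0.942 to 0.977), and the accessory subunits to 0.989 (0.983 to 0.995). Ndufs1, the largest iron-sulfur subunit of the core, was at 33.6 CPM with IL-15SA alone and 32.3 CPM with the combination. Ndufv1, which binds NADH, was at 71.6 and 70.5 CPM. Both core genes differed by less than 1.1-fold, and no direction is read from differences of that size at these counts. The lowest ratio of the complex was that of the accessory subunit Ndufc2, 160 against 138 CPM, 0.859 (0.823 to 0.896).

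Ndufb8, an accessory subunit of the membrane arm, had the highest ratio of any member tested. It stood at 38.6 CPM (36.3 to 40.9) with IL-15SA alone and 55.1 CPM (52.5 to 57.8) with the combination, a ratio of 1.43 (1.32 to 1.54). Its counting intervals did not overlap. The ratio was 1.64 (1.48 to 1.83) in cycling and 1.26 (1.13 to 1.41) in other Ncr1-positive barcodes, and barcodes of neither class held 34.6 and 53.3 CPM. Exons of Ndufb8 share 4.26% of their bases with the model gene Gm20538 on the same strand, so part of its reads could have been assigned otherwise. None of the shared bases lie in the last 300 exonic bases at its 3′ end.

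Complex II oxidises succinate and is also an enzyme of the tricarboxylic acid (TCA) cycle. Its 4 subunits summed to 700 CPM with IL-15SA alone and 655 CPM with the combination, a ratio of 0.937 (0.918 to 0.955), whereas its assembly factors summed to a ratio of 1.05 (1.01 to 1.09). Sdha, the flavoprotein, was at 92.0 and 90.4 CPM, Sdhb, the iron-sulfur subunit, at 293 and 278 CPM. The membrane anchors were at 77.5 and 68.7 CPM (Sdhc, the lowest ratio of the complex, 0.887, 0.836 to 0.942) and 238 and 218 CPM (Sdhd). Each of the 4 subunits had the lower value with the combination, none past the threshold, and no direction is read from the small difference of Sdha. These values are not matched on depth, and matching moved the log2 ratio of the whole complex from -0.055 to 0.014.

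Sdhaf1, a factor that helps insert iron-sulfur clusters into Sdhb, had the highest ratio of complex II. It was at 34.9 CPM (32.8 to 37.1) with IL-15SA alone and 45.3 CPM (42.9 to 47.7) with the combination, a ratio of 1.30 (1.20 to 1.41). The ratio was 1.31 in cycling and 1.29 in other Ncr1-positive barcodes. Barcodes of neither class (552 and 1158) held 32.8 and 35.2 CPM, from few UMIs and with no interval computed, so no contrast with Ncr1-positive barcodes is read from them. Exons of Sdhaf1 overlap E130208F15Rik on the other strand over 69.6% of their bases, and reads of both genes cannot be told apart if strand was not used in counting.

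Complex III passes electrons from ubiquinol to cytochrome c. Its core proteins Uqcrc1 (365 and 367 CPM) and Uqcrc2 (143 and 139 CPM) and the Rieske iron-sulfur protein Uqcrfs1 (206 and 193 CPM) had ratios of 1.01, 0.973 and 0.939. The hinge protein Uqcrh had the highest ratio, 1.10 (1.08 to 1.12), with 742 and 819 CPM, and the small subunit Uqcrq the lowest, 0.896 (0.875 to 0.918), with 482 and 432 CPM. The complex was split evenly, with 4 members above and 4 below a ratio of 1.

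Complex IV reduces oxygen. Cox5a, a nuclear subunit bound to the catalytic core, had the lowest ratio of the complex, with 758 and 668 CPM and 0.881 (0.864 to 0.898), while Cox5b was at 592 and 582 CPM. The highest was Cox7a2l, a factor that joins complexes III and IV into supercomplexes, with 329 CPM (IL-15SA) and 388 CPM (combination) and a ratio of 1.18 (1.15 to 1.21). Its close relative Cox7a2, a subunit of the complex, was lower with the combination (770 and 730 CPM, ratio 0.947). Cox6a1 (794 and 777 CPM), Cox6b1 (734 and 725 CPM) and Cox8a (895 and 944 CPM) differed by less than 1.1-fold.

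For several subunits of complex IV the genome holds a second gene used in muscle, testis or other tissues. These second genes were rare in Ncr1-positive barcodes: Cox6a2 at 1.01 and 0.754 CPM, Cox6b2 at 2.53 and 3.31 CPM and Cox7a1 at 10.2 and 10.2 CPM. Cox4i2 had 0 and 2 UMIs and Cox7b2 0 and 1 UMIs in these barcodes. Cox8b and Cox8c had 0 UMIs in every barcode of both files. So did Cox4i1 and Ndufa13, subunits that most cells use, so a 0 here may be a matter of read assignment and no upper limit is read from it. Exons of Cox4i1 and Ndufa13 overlap Emc8 and Tssk6 on the other strand over 9.94% and 30.0% of their bases.

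Complex V makes ATP in its F1 part, driven by rotation of its membrane ring. The 5 genes of F1 (Atp5a1, Atp5b, Atp5c1, Atp5d and Atp5e) summed to a ratio of 0.917 (0.909 to 0.926), the lowest among the parts of complexes summed here. The catalytic subunit Atp5b was at 597 CPM with IL-15SA alone and 516 CPM with the combination, a ratio of 0.863 (0.845 to 0.882), and its partner Atp5a1 at 318 and 278 CPM. The shaft subunit Atp5c1 was at 511 and 509 CPM, so the difference was not shared by every F1 gene. The F1 sum was not matched on depth, and matching moved the log2 ratio of the whole complex from -0.066 to -0.0063. Atp5f1, a subunit of the stalk that holds F1 in place, had the lowest ratio of the complex, 437 against 375 CPM, 0.859 (0.838 to 0.881).

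The membrane ring of complex V is made of subunit c, which 3 genes encode with the same mature protein. Atp5g1 was at 79.5 and 83.4 CPM, Atp5g2 at 61.0 and 67.7 CPM and Atp5g3 at 359 and 333 CPM. Atp5g2 was higher and Atp5g3 lower with the combination, and no direction is read from the small difference of Atp5g1. The 3 together had a ratio of 0.970 (0.948 to 0.992).

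Atp5l, subunit g of the membrane part, had the highest ratio of complex V. It was at 94.8 CPM (91.3 to 98.4) with IL-15SA alone and 131 CPM (127 to 135) with the combination, a ratio of 1.38 (1.31 to 1.45). The ratio was 1.27 (1.18 to 1.36) in cycling and 1.47 (1.37 to 1.57) in other Ncr1-positive barcodes, and barcodes of neither class held 85.1 and 113 CPM. Copies named as pseudogenes of this gene are listed in the files (Atp5l2-ps at 4.16 and 4.36 CPM), so reads could be split between them.

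Other genes of the pathway are given beside all genes tested, of which 54.5% had a ratio below 1, 5.87% were higher and 3.27% lower past the threshold. Of 13 mitochondrially encoded genes, 6 were tested in Ncr1-positive barcodes and all 6 had a ratio above 1, with a median log2 ratio of 0.16, but none passed the threshold. The 35 assembly factors listed had 20 tested, 7 above and 13 below 1, with a median of -0.05, and 6 of 12 regulators of mitochondrial biogenesis were tested, 2 above and 4 below, with a median of -0.05. Of 13 TCA cycle genes 12 (92.3%) had a ratio below 1, 1 of them past the threshold, with a median of -0.12 against -0.02 for all genes. Cyc1 was at 177 and 165 CPM and the cytochrome c gene Cycs at 383 and 395 CPM. None of these values is matched on depth, and Ncr1-positive barcodes of the combination were shallower (median of 2397 against 3155 UMIs). With IL-15SA alone, mitochondrial genes took 1.61% of UMIs in Ncr1-positive barcodes under 1500 UMIs and 1.30% at 7000 or more. The part of depth in the shifts of these lists was not tested.

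The share of RNA given to the members varied with the depth of a barcode. With IL-15SA alone the sum over all members was 23843 CPM in Ncr1-positive barcodes with under 1500 UMIs, 24189 from 1500 to 2500, 25146 from 2500 to 4000, 26512 from 4000 to 7000 and 28081 at 7000 or more. With the combination the same bins gave 23491, 23890, 25220, 27101 and 29780 CPM. The share rose from bin to bin in both libraries, and the combination was lower in the shallowest 2 bins and higher in the deepest 3. A typical Ncr1-positive barcode gave 2.54% and 2.46% of its UMIs to the members, with 5% of barcodes below 1.68% and 1.66% and 5% above 3.36% and 3.32%.

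**Figure D3:**
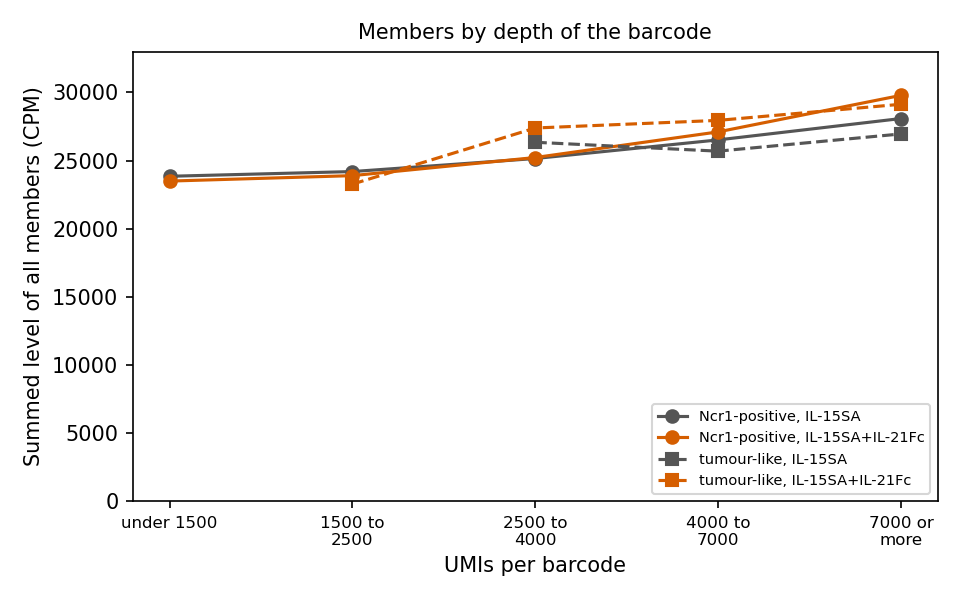
Summed level of all members (CPM, vertical axis, from 0) in barcodes grouped by their UMIs (horizontal axis), for Ncr1-positive (circles, solid lines) and tumour-like barcodes (squares, dashed lines) of both libraries; bins with under 20 barcodes are left out. Ncr1-positive values climb from 23843 to 28081 CPM with IL-15SA alone and from 23491 to 29780 CPM with the combination.

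Cycling barcodes, with at least 3 UMIs over 10 genes of the cell cycle, made up 43.5% of Ncr1-positive barcodes with IL-15SA alone and 32.3% with the combination; 1407 and 1732 barcodes lay at 2 or 3 such UMIs. The summed level was higher in cycling barcodes, by a ratio of 1.07 (1.06 to 1.07) with IL-15SA alone and 1.11 (1.10 to 1.11) with the combination. With IL-15SA alone 55 of 75 members tested were above 1 and 26.7% below (45.0% of all genes), 3 were higher past the threshold (background 16.8%) and none lower (background 6.92%). With the combination 64 of 76 were above 1 and 15.8% below (46.2% of all genes), 10 were higher past the threshold (background 18.4%) and none lower (background 8.98%). Cycling barcodes were also deeper, with a median of 4229 against 2632 UMIs and 3441 against 2128 UMIs. Matched on UMIs, the log2 ratio of all members went from 0.10 to 0.03 and from 0.14 to 0.06.

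By part, the subunits of complex II stood out among the sums in cycling barcodes (ratios of 1.19 and 1.22), as did the genes of subunit c (1.20, 1.16 to 1.24, and 1.24, 1.20 to 1.28). The assembly factors of complex II were at 0.969 and 0.974. Cox7a2l, Atp5l and Uqcrh had the lowest ratios with the combination, at -0.22, -0.22 and -0.18 on the log2 scale, whereas Ndufv1 (0.42) and Ndufa5 (0.41) had the highest. Cox7a2l, for example, was at 355 CPM in cycling and 414 CPM in other barcodes there.

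In tumour-like barcodes the summed level was 26494 CPM with IL-15SA alone and 28261 CPM with the combination, a ratio of 1.07 (1.05 to 1.08). Of 77 members tested 54 were above 1 and 23 below, 29.9% against 52.2% of all 6481 genes tested, with a median log2 ratio of 0.07 against -0.02. In all, 8 members were higher past the threshold (background 15.8%) and 2 lower (background 22.3%). The sums of the complexes had ratios of 1.06 (I), 1.07 (II, interval 0.969 to 1.19), 1.11 (III), 1.06 (IV) and 1.06 (V). The tumour-like barcodes of the 2 libraries also differed in Cxcl5 and Saa3. With 1 library per group, a difference in state and a difference in which cells were caught cannot be told apart.

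The 3 members that stood out in Ncr1-positive barcodes had ratios above 1 here too, as did 54 of the 77 members tested. The barcodes come from the same 2 libraries, so this is not a separate check. Ndufb8 was at 62.1 and 82.4 CPM (ratio 1.33, 0.939 to 1.92), Sdhaf1 at 21.7 and 32.8 CPM (1.51, 0.844 to 2.90) and Atp5l at 74.5 and 109 CPM (1.47, 1.07 to 2.05). The intervals of Ndufb8 and Sdhaf1 included 1, so at this depth a difference was not detectable. The log2 ratio of Sdhaf1, 0.57 from 14 UMIs with IL-15SA alone, ran from 0.24 with a marker cut of 20 to 1.72 with the deepest barcodes removed, and its size is thus uncertain. The isoform gene Cox7a1 went the other way, at 43.4 CPM (28 UMIs in 15 of 102 barcodes) and 13.7 CPM (30 UMIs in 25 of 381), a ratio of 0.315 (0.182 to 0.546). The other member lower past the threshold was Sdhaf2, at 77.6 and 58.7 CPM.

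Between the classes, the members were shifted less towards tumour-like barcodes than the median of the genes tested. Over all genes tested the median log2 ratio of tumour-like over Ncr1-positive barcodes was 0.26 in both libraries, so a member at 0 was below that median. The sum of all members had a ratio of 1.02 (1.00 to 1.03) with IL-15SA alone and 1.11 (1.10 to 1.11) with the combination, both below that shift: centred on the median of all genes, the log2 ratios were -0.23 and -0.11. The sum of complex I had ratios of 1.17 (1.14 to 1.20) and 1.26 (1.24 to 1.27), its catalytic core 1.31 (1.22 to 1.42) and 1.39 (1.33 to 1.45) and its accessory subunits 1.15 and 1.24. Centred on the same median, the log2 ratios of complex I were -0.034 and 0.071, so the complex as a whole lay near that median. Genes at 20 CPM or more in only 1 class, such as those high only in tumour-like barcodes, also entered the median. How far they moved it, or the background shares, was not measured. The sum of complex II had ratios of 0.842 and 0.936, the sum of complex III 0.959 and 1.06, the sum of complex IV 0.952 and 1.02 and the sum of complex V 0.946 and 1.05. The 2 comparisons use separate barcodes of separate libraries but share the sort, the kit and the cut that set the classes.

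With IL-15SA alone 21 of 76 members tested were higher past the threshold in tumour-like barcodes (background 47.2%) and 18 lower (background 29.0%). With the combination 26 of 76 were higher (background 47.5%) and 9 lower (background 28.2%). Of 75 members tested in both libraries, 19 were higher past the threshold in both (25.3%, against 39.8% of all 6460 genes tested in both), 9 were lower in both (12.0%, against 24.4%) and 10 had opposite signs. By complex, the members higher and lower in both were 14 and 3 of 35 in complex I, 0 and 2 of 7 in complex II, 2 and 2 of 8 in complex III, 0 and 0 of 10 in complex IV and 3 and 2 of 15 in complex V. The share of members past the threshold in both libraries was below that of all genes in each direction, with no test of that difference. Complex I, the largest complex, had 40.0% of its members higher in both, next to the 39.8% of all genes, and 8.57% lower.

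**Figure D4:**
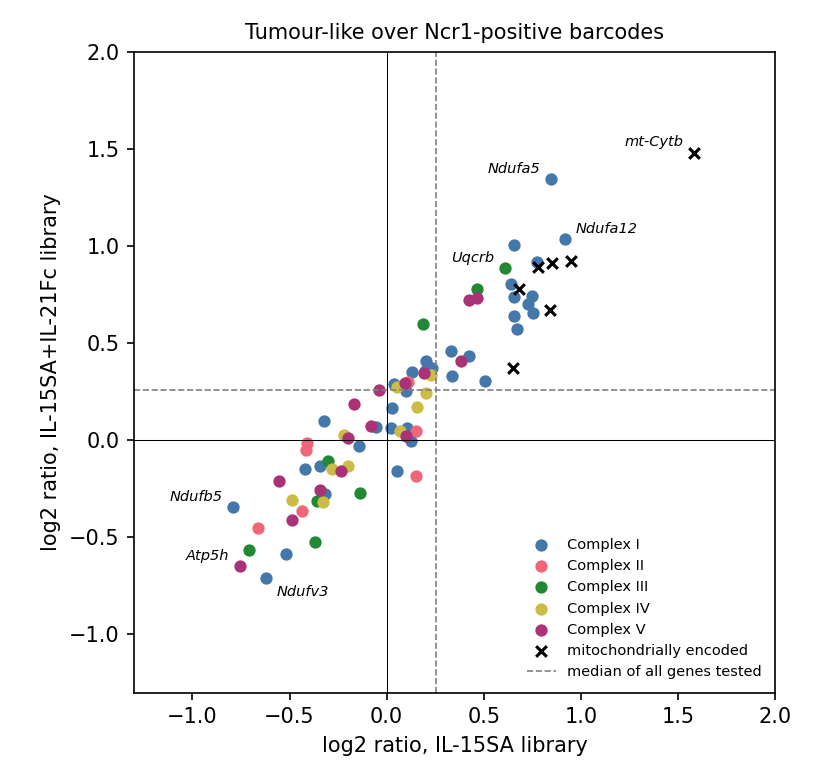
Log2 ratio of tumour-like over Ncr1-positive barcodes (CPM + 1) with IL-15SA alone (horizontal axis) and with the combination (vertical axis) for the 75 members tested in both, coloured by complex, with 7 mitochondrially encoded genes as crosses; dashed lines mark the median of all genes tested, 0.26 in each library. Complex I genes such as Ndufa5 and Ndufa12 lie at the upper right near the mitochondrially encoded genes, and Atp5h, Ndufv3 and Ndufb5 at the lower left.

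Ndufa5, an accessory subunit of the peripheral arm of complex I, had the highest mean ratio. It was at 223 and 207 CPM in Ncr1-positive barcodes and 402 and 528 CPM in tumour-like barcodes of the IL-15SA and combination libraries, ratios of 1.80 (1.58 to 2.04) and 2.55 (2.39 to 2.71). Ndufa12, an accessory subunit of the same arm, was at 468 and 454 CPM against 886 and 930 CPM, ratios of 1.89 (1.74 to 2.06) and 2.05 (1.96 to 2.15). Tumour-like values were above the Ncr1-positive ones in both libraries for both genes. Ndufa2 (430 and 440 against 737 and 833 CPM) and Uqcrb, a small subunit of complex III (246 and 249 against 375 and 461 CPM), were also among the 5 highest.

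The lowest ratios were spread over 4 complexes. Atp5h, a subunit of the peripheral stalk of complex V, was at 740 and 779 CPM in Ncr1-positive and 437 and 496 CPM in tumour-like barcodes, ratios of 0.591 (0.524 to 0.665) and 0.637 (0.599 to 0.677). Ndufv3, an accessory subunit next to the NADH site of complex I, was at 347 and 343 against 225 and 209 CPM. The Rieske protein Uqcrfs1 was at 206 and 193 against 126 and 130 CPM, Ndufb5 at 288 and 278 against 166 and 219 CPM, and Sdhaf1 at 34.9 and 45.3 against 21.7 and 32.8 CPM. All 5 had lower values in the tumour-like barcodes of both libraries, and complex I thus held genes at both ends of the order. The tumour-like value of Sdhaf1 with IL-15SA alone rests on few UMIs, so its direction in that library is uncertain.

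The rare isoform genes rested on few UMIs in tumour-like barcodes. Cox6a2 was at 9.31 and 4.55 CPM there, from 6 and 10 UMIs, against 1.01 and 0.754 CPM in Ncr1-positive barcodes. Ndufa4l2, a relative of Ndufa4 known as a target of hypoxia signalling, was at 4.65 and 2.28 CPM, from 3 and 5 UMIs, against 0.104 and 0.0984 CPM. Cox7a1 had a ratio of 4.28 (2.79 to 6.31) with IL-15SA alone and 1.34 (0.889 to 1.95) with the combination, so 1 library carried that difference. Cox6b2 had 0 UMIs in tumour-like barcodes, which allows up to 4.65 and 1.37 CPM at 3 counts, against 2.53 and 3.31 CPM in Ncr1-positive barcodes.

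The mitochondrially encoded genes had higher ratios between the classes than most nuclear members. All 7 tested were higher past the threshold in both libraries (39.8% of all genes), with a median log2 ratio of 0.84 and 0.89 against 0.08 and 0.09 for the members. The complex III gene mt-Cytb was at 4449 and 4912 CPM in Ncr1-positive and 13335 and 13694 CPM in tumour-like barcodes, ratios of 3.00 (2.93 to 3.06) and 2.79 (2.75 to 2.82). These ratios pool all depths. In tumour-like barcodes of 1500 to 2500 UMIs (13 and 41 barcodes), mitochondrial genes took 4.99% and 5.61% of UMIs. Ncr1-positive barcodes of that depth gave them 1.49% and 1.58%. At 7000 UMIs or more the shares were 2.13% and 2.16% against 1.30% and 1.48%, so the gap was smaller in deep barcodes. Among assembly factors of complex III, Uqcc2 was at 159 and 152 against 405 and 423 CPM and Uqcc3 at 94.8 and 102 against 18.6 and 30.5 CPM; both were named after their values were seen.

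The members were also grouped by promoter letters, as a description with no test. In Ncr1-positive barcodes the 21 members with the looser NRF1 letters had a median log2 ratio of -0.01 for the combination over IL-15SA and the 55 others -0.05. For tumour-like over Ncr1-positive barcodes the medians were 0.10 and 0.05 with IL-15SA alone and 0.07 and 0.10 with the combination. In cycling over other barcodes they were 0.14 and 0.08 with IL-15SA alone and 0.25 and 0.12 with the combination. The others include members without a promoter in the table.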

How the data were processed

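Single-cell RNA libraries were made on GEXSCOPE microwell chips, per the labels' protocols. The deposited values are raw UMI counts per gene and barcode; the submitters' processing notes list mm10, Scanpy, Seurat version 4, featureCounts and cutadapt, with no roles. Aligner, annotation and strand setting: not given in the sources used here. Each sample's own title set its group, although the title of the series speaks of IL-21 with and without IL-15.

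Barcodes under 200 genes or over 20% mitochondrial UMIs were removed (0 with IL-15SA alone and 5 with the combination). UMIs were summed per class and library and divided by the class total. No doublet caller was used: mixed barcodes were set aside, and removing the 5% deepest barcodes was an alternative. CPM intervals are exact Poisson, ratio intervals exact conditional binomial. PCR and capture errors are not covered. The members, markers and lists were chosen with earlier results of these data known. Named genes are, by rule, the highest and lowest ratio of each complex, the 5 highest and 5 lowest tumour-like over Ncr1-positive ratios, members past 1.5-fold, core subunits and paralog sets. One result that this rule names is not reported here. The ratio code was tested on simulated data. Overlaps were read from GENCODE M21, which holds 53620 of the 53715 gene IDs, and promoters from RefSeq. Python 3.11.15, numpy 2.4.6, scipy 1.17.1, pandas 2.3.3 and matplotlib 3.10.9 were used. The alternatives were the marker cut, scaling, matching on depth, removal of deep barcodes, averaging over barcodes, the Ncr1 minimum, cycling barcodes, the filter on low values and the added CPM.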

Additional observations from a re-analysis of the deposited data

Results flagged for a closer look

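Sums were flagged when the combination over IL-15SA ratio lay on opposite sides of 1 in Ncr1-positive and tumour-like barcodes. Both counting intervals also had to exclude 1. This held for 4 of the 6 sums compared. The log2 ratios in Ncr1-positive and tumour-like barcodes were -0.02 and 0.09 for complex I and -0.01 and 0.08 for complex IV. They were -0.07 and 0.09 for complex V, and -0.03 and 0.09 for all members. Complex II also had opposite signs (-0.055 and 0.098), but its tumour-like interval included a ratio of 1. Matched on UMIs per barcode, the Ncr1-positive values of complexes I and IV and all members became positive (0.020, 0.040 and 0.022). Complex V was then at -0.0063. The matched tumour-like values were 0.090 (I), 0.082 (IV), 0.093 (V) and 0.096 (all members). The difference between the classes was not tested, since each group had 1 library.

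Barcodes of neither class, which entered no comparison, also carried the members, at a summed 24835 CPM with IL-15SA alone and 25011 CPM with the combination.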

How the results depend on the processing

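All settings are log2 ratios of summed CPM. For the combination over IL-15SA in Ncr1-positive barcodes (-0.03), centring on the median of all genes gave -0.011, removal of the 5% deepest barcodes -0.034, leaving out cycling barcodes -0.040, and matching on UMIs per barcode 0.022, a change of sign. Matching also gave 0.020 for complex I, 0.014 for complex II and 0.040 for complex IV, and centring gave 0.0030 for complex IV. In tumour-like barcodes (0.09), removal of the deepest barcodes and the mean share per barcode each gave 0.067. That removal, set over each whole library, left 74 of 102 and 239 of 381 tumour-like barcodes. For tumour-like over Ncr1-positive barcodes with IL-15SA alone (0.02), a marker cut of 20 and the mean share gave 0.046 and 0.045, centring -0.23 and matching -0.047; centring gave -0.034 for complex I. With the combination (0.14), a marker cut of 5 gave 0.13, a cut of 20 gave 0.18, removal of the deepest barcodes 0.12, centring -0.11 and matching -0.0080. There, centring and matching gave -0.17 and -0.058 for complex III, -0.23 and -0.13 for complex IV and -0.19 and -0.10 for complex V. The cause of these shifts was not tested. Under all 11 alternatives for the counts, 3 members were higher and 0 lower past the threshold in Ncr1-positive barcodes, while the share of all genes ran from 3.31% to 9.02% higher and from 1.83% to 3.76% lower. Of 184 other values (complexes and named members), 127 kept their sign and moved by less than their counting interval, 45 kept it and moved by more, and 12 changed sign; 1 of these was complex III between the libraries in Ncr1-positive barcodes (0.0017), which was -0.0013 without cycling barcodes. The log2 ratio of Sdhaf1 in tumour-like barcodes (0.57) was 1.72 with the deepest barcodes removed and 1.22 by mean share. Matching cycling barcodes on depth was chosen after seeing the data. No paired analysis was possible because a group is 1 library here. With 102 tumour-like barcodes with IL-15SA alone, members under about 20 CPM rest on few UMIs.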
